A study of Mus musculus with 9 samples.

Results

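Adult mouse ventricular cardiomyocytes (CMa) were set against undifferentiated mouse embryonic stem cells (mES), gene by gene over the whole array. The comparison used 6 of the 9 arrays of the series, chosen by their labels alone: 3 CMa arrays and 3 mES arrays. The CMa samples were purified from the left ventricle of 2-month-old mice. The mES samples were the line labelled TBV2, in the undifferentiated stage. Untreated cells were used throughout, and the labels name no genotype, strain, sex or agent for either group. The other 3 arrays held cardiomyocytes purified from hearts of 1-day-old mice (CMp). They entered the normalization and the estimate of spread and are quoted in a few places. The labels speak of biological triplicates without naming animals or cultures, so a p-value here measures no more than the spread among the deposited samples, which may be technical. The growth description, shared by all samples, mentions purification and culture and does not say whether the adult cells were kept in culture before lysis. Tissue origin, age, purification and stage all differ together between CMa and mES.

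Each array carried 45281 probes, and a probe counted as detected where the authors' detection p-value was under 0.01. Between 13781 and 15233 probes were detected on the CMa arrays and between 16405 and 17875 on the mES arrays. Summed background-corrected signal was 11480060 ± 572385 units on CMa arrays and 20554727 ± 727711 units on mES arrays (SD, n = 3 each), so shares below are percentages of each array's own total. Correlations of normalized log2 intensity over genes were 0.973 to 0.985 among CMa arrays, 0.988 to 0.994 among mES arrays and 0.553 to 0.578 between the groups. All 10 cardiomyocyte markers were called higher in CMa and all 9 markers of pluripotent cells lower, 7 of the 9 being undetected on every CMa array. The labelled cell types thus carried their defining transcripts. Markers of other heart cells were present in CMa too. Endothelial markers were called higher in CMa for 13 of 13 tested and held 0.160 to 0.217% of CMa signal, against 0.0187 to 0.0242% of mES signal; Kdr was undetected on all 6 arrays of CMa and mES. Erythroid markers were called higher for 5 of 6 and held 0.0833 to 0.189% against 0.000382 to 0.000599%. Fibroblast markers were called higher for 7 of 11 (2 lower) and held 0.0490 to 0.0642% against 0.0111 to 0.0192%, with Postn and Col1a2 undetected on all 6 arrays of CMa and mES. Mural markers were called higher for 7 of 8 (1 lower) and held 0.0674 to 0.0701% against 0.0201 to 0.0366%. Leukocyte markers were called higher for 7 of 13 (1 lower) and held 0.00370 to 0.00766% against 0.0193 to 0.0214%, the mES part being mostly Laptm5, while Ptprc, Itgam and Adgre1 were undetected on those 6 arrays. In such bulk RNA, fewer cells of a type and less RNA per cell cannot be told apart. Atrial markers were called higher for 4 of 4 and held 0.174 to 0.242% of CMa signal against 0.000839 to 0.00269% of mES signal, mostly through Nppa. The calls of Myl7 and Sln were lost under some alternative processing, the authors' normalized matrix included (limma adjusted p = 0.364 and 0.271).

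The adult ventricular cardiomyocyte no longer divides and contracts without pause, and it draws most of its ATP from oxidation of fatty acids and other fuels in mitochondria that fill much of the cell. Embryonic stem cells divide rapidly, rely strongly on glycolysis, and spend their transcription on growth: ribosomes, nucleotides, one-carbon units, membrane sterols and genome copying. Stem cells also transcribe epithelial genes, and germ line genes, of which the latter are silent in most adult tissues.

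Promoter sequence (RefSeq, GRCm38.p6) is shown first for genes at the top of either group. The 250 bases before the start are given for the 2 genes with the highest CMa signal, Atp5b and Atp5g3, both subunits of mitochondrial ATP synthase, and for the 2 genes of highest mES level that were undetected in CMa, Trh, the thyrotropin-releasing hormone precursor, and Nanog, a transcription factor of pluripotency. Capitals mark AAGGTCA on either strand, the core of the element that oestrogen-related receptors bind.
Atp5b (chr10:128083057-128083306, plus strand): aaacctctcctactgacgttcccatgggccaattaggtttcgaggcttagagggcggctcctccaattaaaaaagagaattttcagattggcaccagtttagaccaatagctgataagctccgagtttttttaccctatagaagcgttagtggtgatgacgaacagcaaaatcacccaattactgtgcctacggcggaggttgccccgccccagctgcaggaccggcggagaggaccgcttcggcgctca
Atp5g3 (chr2:73911327-73911576, minus strand): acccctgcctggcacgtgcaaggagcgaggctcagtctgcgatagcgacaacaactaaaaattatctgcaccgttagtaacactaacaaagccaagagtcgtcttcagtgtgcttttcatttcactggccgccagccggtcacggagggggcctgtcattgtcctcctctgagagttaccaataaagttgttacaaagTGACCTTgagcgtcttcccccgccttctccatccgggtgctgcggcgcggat
Trh (chr6:92244651-92244900, minus strand): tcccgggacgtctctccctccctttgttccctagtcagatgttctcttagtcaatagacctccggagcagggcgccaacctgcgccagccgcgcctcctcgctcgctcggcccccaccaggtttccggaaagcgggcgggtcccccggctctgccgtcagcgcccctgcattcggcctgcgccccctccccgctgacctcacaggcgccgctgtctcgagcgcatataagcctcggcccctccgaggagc
Nanog (chr6:122707239-122707488, plus strand): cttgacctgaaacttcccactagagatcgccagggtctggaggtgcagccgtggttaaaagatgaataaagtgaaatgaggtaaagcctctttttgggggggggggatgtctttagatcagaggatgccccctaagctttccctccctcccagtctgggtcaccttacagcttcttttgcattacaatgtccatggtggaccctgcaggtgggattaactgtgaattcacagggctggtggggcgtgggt
Counting the 250 bases before and 50 bases after the start, CG occurred 18 times in the Atp5b window, 21 times in Atp5g3, 28 times in Trh and 4 times in Nanog. All 76 respiratory chain genes tested were then matched to the table, which held 63 of them (82.9%). AAGGTCA on either strand was present in 7 of the 63 windows (11.1%), against 254 of the 8712 windows matched for all genes tested (2.92%). None of the 7 overlapped GGGCGG, the box of Sp1. This motif was chosen after the list was known to be high in CMa, and a match in letters is not a site. The 7 stretches follow on the gene's own strand, with the motif in capitals.
Atp5e (chr2:174464060-174464088, minus strand): ctactcaggccTGACCTTcctgctgccgg
Atp5g3 (chr2:73911361-73911389, minus strand): ttgttacaaagTGACCTTgagcgtcttcc
Atp5k (chr5:108434359-108434387, minus strand): cttccggcgcgAAGGTCAcggacaaaatg
Atp5l (chr9:44920738-44920766, minus strand): gaggggcagccTGACCTTggaaatgggga
Ndufb2 (chr6:39592373-39592401, plus strand): ggagcagcagtAAGGTCAgccaagagcac
Ndufb4 (chr16:37654406-37654434, minus strand): tcctgagcctgAAGGTCAgactcgagagg
Sdhd (chr9:50603800-50603824, minus strand): gggttgtagagTGACCTTgagccct
The motif began 13 bases before the start in Atp5l, 52 before in Atp5g3, 55 before in Ndufb4 and 181 before in Ndufb2, and 24 to 37 bases after it in Atp5k, Atp5e and Sdhd. Log2 changes of these 7 genes ran between 0.88 for Atp5g3 and 3.70 for Atp5e, all called higher. Among promoters of the 100 highest genes in CMa signal (82 matched), the median window held 16 CG, against 21 for the 100 highest in mES signal (83 matched) and 21 for all genes tested. TATAAA on either strand, anywhere in the window, was in 15.9% of the CMa windows and 15.7% of the mES windows, against 7.7% for all genes tested. On the gene's strand 40 to 16 bases before the start, where a TATA box lies, it was in 1 CMa window (1.22%) and 2 mES windows (2.41%). The share there for all genes tested was 1.47%. Fewer than 80% of the genes lost or gained had a promoter in the table (78.2% and 74.7%), so the same description of those groups is void.

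Across 10800 genes tested, 8301 (76.9%) were called at an adjusted p under 0.05 in limma with Benjamini-Hochberg adjustment over all genes, 3966 higher in CMa (36.7%) and 4335 lower (40.1%). At least 2-fold changes numbered 3092 higher (28.6%) and 3221 lower (29.8%). The 2 groups of arrays did not overlap for 8652 genes (80.1%). When arrays were instead only scaled so that their medians matched, the calls were 2698 higher and 6009 lower, and the median log2 change of all genes was -0.79, against -0.07 after quantile normalization. Counts below are read against these backgrounds.

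Signal was packed into fewer genes in CMa. The 100 brightest genes of each array held 29.0, 28.8 and 29.4% of its signal on the CMa arrays, against 20.9, 20.8 and 21.3% on the mES arrays, averaging 29.1 ± 0.30% and 21.0 ± 0.26% (SD, n = 3 each). The 500 brightest held 60.2, 58.5 and 58.5% on the CMa arrays, against 47.9, 48.2 and 48.0% on the mES arrays. Every CMa array lay above every mES array in both measures. It took 318 ± 13 genes to reach 50% of the signal in CMa and 549 ± 5 genes in mES (SD, n = 3 each). The effective number of genes, the exponential of the Shannon entropy of the shares, was 1924, 2024 and 2016 on the CMa arrays, against 2940, 2885 and 2890 on the mES arrays. The 10 brightest genes held 4.89 ± 0.62% in CMa and 3.15 ± 0.20% in mES, but in the authors' matrix the difference turned, at 3.34% in CMa and 3.52% in mES. There the top 100 share was 20.8% in CMa against 19.01% in mES, and the top 500 share 42.8% against 39.5%, so the differences were much smaller. That matrix was already normalized by the authors. Normalization between arrays can even out concentration, so these values do not decide the size of the difference. On the background-corrected signal, each of the 5 measures gave a two-sided exact permutation p of 0.1, the smallest that 3 against 3 arrays allow. CMp arrays lay between the groups for the top 100 at 25.5 ± 0.80%. A signal share compares the brightness of probes, not numbers of molecules, and probes close to the ceiling of the scanner compress the shares of the brightest genes.

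**Figure D1:**
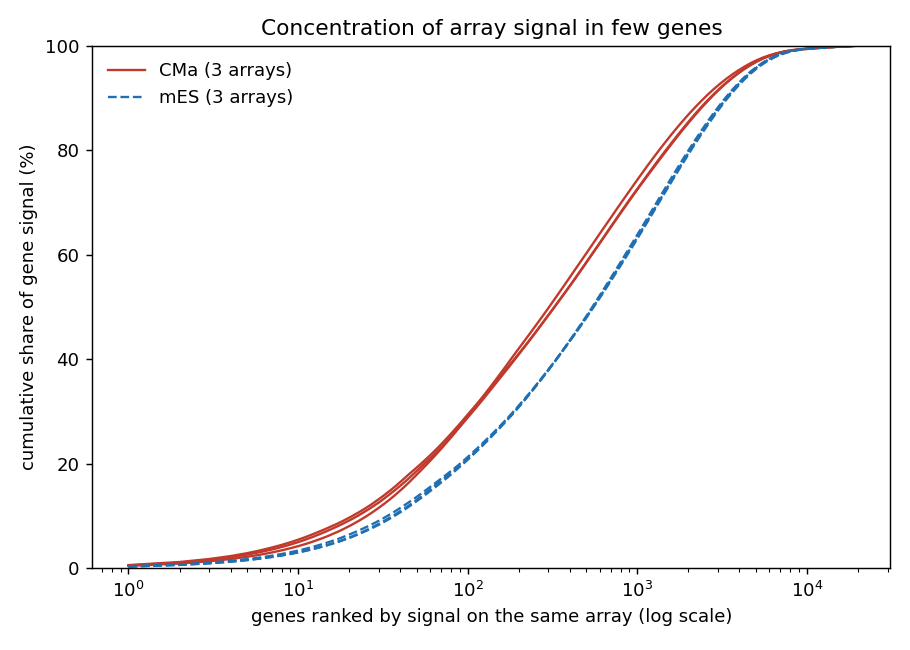
Cumulative share of the gene signal (%, vertical axis) against the number of genes counted, from the brightest down (horizontal axis, log scale), a line for each of 3 CMa arrays (solid red) and 3 mES arrays (dashed blue). The CMa lines run above the mES lines, reaching 29.1% at 100 genes against 21.0% in mES, and 59.1% at 500 genes against 48.0%.

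The genes at the top were of other kinds in the 2 groups. Of the 100 genes with the highest CMa signal, 35 belonged to the respiratory chain and ATP synthase list, 11 to the sarcomere, 10 were cytosolic ribosomal proteins and 6 took up or oxidized fatty acids. Of the 100 highest in mES, 4 were respiratory chain genes, none was sarcomeric or of the fatty acid list, 36 were ribosomal proteins and 4 were proteasome subunits. The groups shared 22 of these genes. The CMa set held 28.9% of CMa signal and 8.53% of mES signal, with 85 of its genes called higher and 7 lower. The mES set held 12.3% of CMa signal and 20.9% of mES signal, with 83 called lower and 7 higher. Since a gene enters either set through its level in that group, these counts describe the sets and test nothing.

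The 12 highest genes in CMa were Atp5b, Atp5g3, Tnnc1, Lpl, Cox6a2, Atp2a2, Myl3, CYTB, Cox7a1, Fabp3, Myl2 and Mb, each with 0.439 to 0.521% of the signal. The 8 highest in mES were Dppa5a, Rpl9, H2ac24, Atp5b, Rplp1, Tuba1b, Npm1 and Ybx1. Atp5b, the catalytic beta subunit of ATP synthase, was bright in both, at 15.25, 15.30 and 15.37 log2 units on the CMa arrays against 15.32, 15.22 and 15.11 on the mES arrays, and it was not called (log2 change 0.08 ± 0.14 SE, adjusted p = 0.596). Its groups overlapped. Cox6a2, the heart and muscle form of a cytochrome c oxidase subunit, read 15.09, 15.34 and 15.22 on CMa arrays, against 4.38, 4.43 and 4.39 on mES arrays, where it was undetected. It was at least 1192-fold higher in CMa. Lpl, lipoprotein lipase, read 15.30, 15.17 and 15.28 in CMa against 7.86, 6.92 and 7.79 in mES, a log2 change of 7.73 ± 0.23 SE (adjusted p = 4.3e-10), but its other kept probe gave 1.92. Atp2a2, the calcium pump of the sarcoplasmic reticulum, changed by 5.83 ± 0.17 on its brightest probe and by 0.35 on the weakest of its 3 kept probes. Levels above 15 log2 units lie near the ceiling, where folds can be compressed. H2ac24, a histone H2A gene, was at 10.39, 11.06 and 10.59 in CMa against 15.34, 15.20 and 15.30 in mES, and Npm1, the nucleolar protein nucleophosmin, at 12.17, 12.18 and 11.76 against 15.20, 14.99 and 15.19. Both were called lower, by -4.60 ± 0.31 and -3.09 ± 0.17.

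Energy metabolism took the largest share of the adult pool among the lists examined. 6 lists together (respiratory chain, mitochondrially encoded subunits, fatty acid oxidation, TCA cycle, branched-chain amino acid breakdown and energy transfer; 158 genes) held 21.6, 20.7 and 20.4% of signal on the CMa arrays, against 5.42, 5.17 and 5.29% on the mES arrays, and 134 of 149 tested genes were called higher and 8 lower. By itself the respiratory chain and ATP synthase list held 13.6 ± 0.77% of CMa signal, 8.79% of CMp signal and 3.65 ± 0.04% of mES signal. Of its 76 tested genes 69 were called higher and 4 lower, with a median log2 change of 2.00 against -0.07 for all genes. Most of its members were thus already expressed in mES: 72 were detected on all mES arrays. The 4 lower genes, named after their values were seen, were Cox6a1, Cox6b2, Cox8c and Uqcrq. Cox6a1, the widely expressed form of the subunit for which Cox6a2 is the muscle form, fell by 0.66 on the log2 scale, and Cox6b2 and Cox8c, known as testis forms, by 2.44 and 1.76. Cox8b, another muscle form, read 14.89, 14.81 and 14.69 in CMa and was undetected in mES at 4.18, 4.36 and 4.28, at least 890-fold higher.

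The mitochondrially encoded subunits, a list added after the data were seen, moved less: 6 of 7 tested were called higher and none lower, the median was 1.31, and their share was 1.75 ± 0.11% in CMa against 0.825 ± 0.071% in mES. CYTB, cytochrome b, read 14.95, 15.11 and 15.14 in CMa against 14.79, 14.87 and 14.60 in mES and was not called (0.31 ± 0.15 SE, adjusted p = 0.0812). ND4L had the largest change of the list, 3.29 ± 0.28.

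Transcripts of genes that supply fuel to the chain were higher over nearly the whole of their lists. Fatty acid uptake and oxidation had 25 of 26 genes called higher and none lower, a median of 3.57, and 2.69 ± 0.05% of CMa signal against 0.244 ± 0.028% of mES signal. Cpt1b, the muscle carnitine palmitoyltransferase that admits long-chain fatty acids into mitochondria, read 12.18, 12.53 and 13.18 in CMa and 5.23, 4.83 and 4.78 in mES, a log2 change of 7.68 ± 0.27 (adjusted p = 1.2e-09). Fabp3, the heart fatty acid binding protein, read 15.11, 15.09 and 15.09 in CMa, against 11.41, 9.77 and 11.26 in mES. Cd36, a fatty acid transporter, was detected on all CMa arrays and on no mES array, at a modest 6.32, 6.15 and 6.29 in CMa against 4.34, 4.48 and 4.37 in mES. The TCA cycle and pyruvate dehydrogenase list had 14 of 15 genes called higher and 1 lower (median 2.13, share 1.20 ± 0.06% in CMa and 0.316 ± 0.009% in mES). Ogdh and Dlat, components of the oxoglutarate and the pyruvate dehydrogenase complex, changed by 4.84 ± 0.24 and 4.07 ± 0.22. Idh3b, a subunit of NAD-dependent isocitrate dehydrogenase, was the exception, at 9.61, 9.71 and 10.02 in CMa against 11.25, 11.32 and 11.28 in mES, though its other kept probe gave 0.78 and the mean of both was not called (-0.36, adjusted p = 0.261).

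Breakdown of branched-chain amino acids, propionate and ketone bodies had 15 of 17 genes called higher and 1 lower, with a median of 1.69 and a share of 0.545 ± 0.028% in CMa against 0.118 ± 0.008% in mES. Oxct1, which starts ketone body use in the heart, changed by 4.68 ± 0.17, and Ivd, isovaleryl-CoA dehydrogenase of leucine breakdown, by 3.34 ± 0.15. Auh, also of leucine breakdown, was called lower at 5.75, 5.57 and 5.17 in CMa against 7.97, 7.89 and 8.03 in mES, but the authors' matrix gave 0.04. Of 8 creatine kinases, adenylate kinases and myoglobin, 5 were called higher and 2 lower, and their share was 1.08 ± 0.02% in CMa against 0.140 ± 0.009% in mES. Ckmt2, the sarcomeric mitochondrial creatine kinase, read 14.84, 14.88 and 14.81 in CMa and was undetected in mES (4.46, 4.48 and 4.38), at least 918-fold higher. Its counterpart Ckmt1 ran the other way, at 5.01, 4.85 and 4.45 in CMa, undetected, against 9.69, 9.29 and 9.66 in mES, at least 16.6-fold lower. Mb, myoglobin, read 15.10, 15.07 and 15.10 in CMa against 4.86, 4.67 and 5.32 in mES.

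Other mitochondrial lists moved less, or both ways. Mitochondrial ribosomal proteins had 41 of 73 called higher and 7 lower with a median of 0.51, which was -0.19 with arrays scaled to a common median, where all genes had a median of -0.79; their share was 1.99 ± 0.27% in CMa against 1.51 ± 0.07% in mES. Mitochondrial import and dynamics had 15 of 24 higher and 6 lower, with a median of 0.81. Mfn2 and Mfn1, which fuse outer mitochondrial membranes, led it at 4.78 ± 0.23 and 3.14 ± 0.22. Solute carriers of the Slc25 family had 17 of 32 higher and 9 lower (median 0.66, but -0.25 with median scaling), led by Slc25a34 at 5.70 ± 0.23. Antioxidant enzymes had 9 of 19 higher and 7 lower, with a median of -0.05, and their signal shares overlapped between the groups. Txnrd2, the mitochondrial thioredoxin reductase, and Gpx3, the secreted glutathione peroxidase, changed by 2.83 ± 0.20 and 2.79 ± 0.21.

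**Figure D2:**
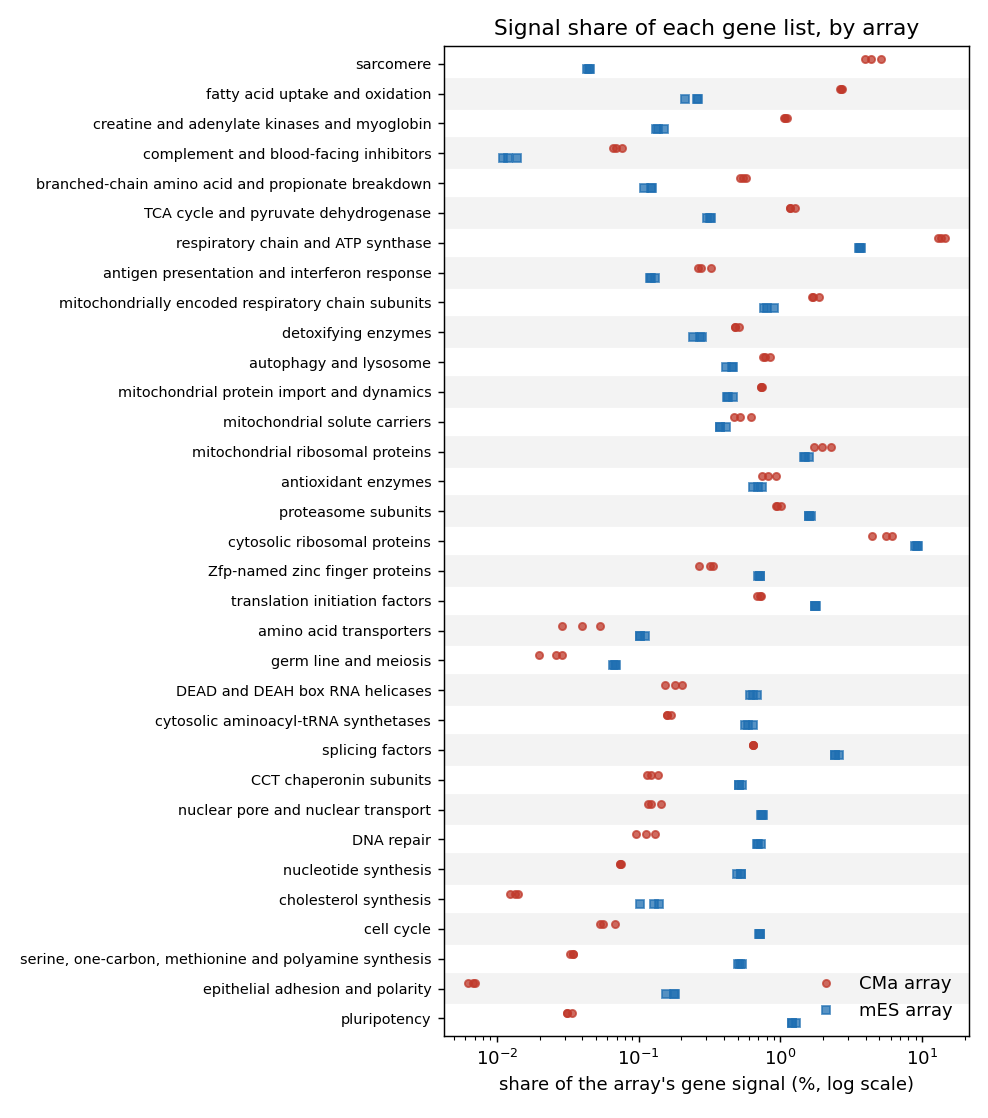
Share of each array's gene signal (%, horizontal log axis) held by each gene list (rows, ordered by the ratio of CMa to mES), with red circles for the 3 CMa arrays set above blue squares for the 3 mES arrays. The respiratory chain sits near 13.6% in CMa against 3.65% in mES, cytosolic ribosomal proteins at 5.39% against 9.15%, and antioxidant enzymes overlap.

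Machinery for making and handling RNA and protein was lower across its lists, with 1 or 2 genes lost in each list but the RNA helicases, whose share of losses (15%) lay near the 15.6% of all genes. 8 such lists together (353 genes) held 9.11, 8.47 and 7.32% of CMa signal, against 17.5, 17.6 and 17.5% of mES signal, with 17 of 311 tested genes called higher and 253 lower. Cytosolic ribosomal proteins had 47 of 54 called lower and 1 higher, with a median of -1.26, and held 5.39 ± 0.88% of CMa signal against 9.15 ± 0.19% of mES signal. Of the 53 detected on all mES arrays, 1 was undetected in CMa. Rps6, a small-subunit protein phosphorylated downstream of growth signals, read 11.29, 11.01 and 10.23 in CMa against 13.90, 13.82 and 13.99 in mES (-3.06 ± 0.26, adjusted p = 1.1e-06). Splicing factors had 59 of 74 lower and 4 higher (median -1.58, share 0.641 ± 0.004% in CMa against 2.48 ± 0.10% in mES), including Hnrnpf at -3.45 ± 0.54. Snrnp70, the U1 component, fell by 3.16 on its brightest probe, while its other probe gave 0.41. Nuclear pore and transport genes had 35 of 40 lower and 1 higher (median -2.08, share 0.128 ± 0.015% against 0.745 ± 0.011%). Nup160, a scaffold nucleoporin, was at 5.51, 6.17 and 6.53 in CMa against 10.79, 10.64 and 10.91 in mES. Ipo13 alone was called higher there, by 1.04 ± 0.26, but with median scaling it was at 0.17 and not called (adjusted p = 0.523).

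All 8 tested subunits of the CCT chaperonin, which folds actin and tubulin, were called lower, with a median of -1.93 and a share of 0.124 ± 0.012% in CMa against 0.518 ± 0.013% in mES. Cytosolic aminoacyl-tRNA synthetases had 18 of 19 lower and none higher (median -1.59), and initiation factors 32 of 41 lower and 6 higher (median -1.49). Eif2s3y, a Y-linked subunit of initiation factor 2, was undetected in CMa at 4.52, 4.39 and 4.41, against 10.55, 10.04 and 10.47 in mES, while the Y-linked Kdm5d was at 6.44, 6.67 and 6.82 in CMa against 4.73, 4.25 and 4.35, undetected, in mES. RNA helicases of the DEAD and DEAH boxes lost 6 of 40 detected genes and had 32 of 41 lower and 1 higher, Dhx32, whose change of 0.52 was -0.32 with median scaling. Proteasome subunits had 22 of 34 lower and 4 higher (median -0.59, share 0.961 ± 0.049% against 1.61 ± 0.04%). The 4 higher ones, named after their values were seen, were Psmd8 and the 3 catalytic subunits of the immunoproteasome, Psmb8, Psmb9 and Psmb10. Psmb9 read 9.06, 9.29 and 9.10 in CMa against 6.13, 6.11 and 6.24 in mES, and Psmb8 8.85, 9.48 and 8.09 against 5.87, 5.77 and 5.85.

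**Figure D3:**
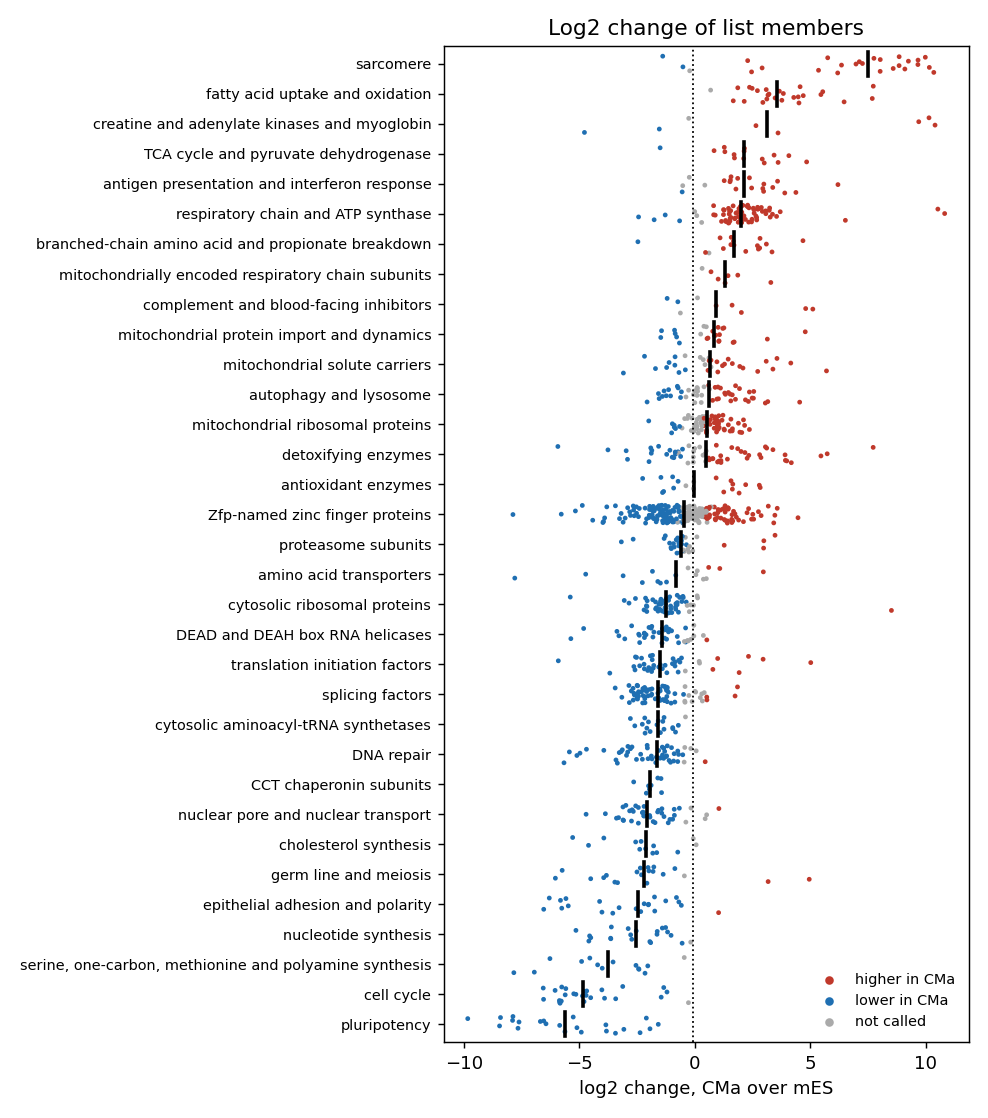
Log2 change of CMa over mES (horizontal axis) for every tested member of each list (rows, ordered by median), red where called higher in CMa, blue where called lower and grey where not called, with a black bar at the list median and a dotted line at the median of all genes (-0.07). Fatty acid oxidation centres on 3.57 and the respiratory chain on 2.00, while one-carbon synthesis centres on -3.78 and nuclear transport on -2.08.

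Loss to background was counted apart from the fit, from detection alone. A gene was counted as lost where at least 1 probe was detected on all 3 mES arrays and no probe on any CMa array, and as gained in the reverse case. Of 8831 genes detected in mES, 1374 were lost in CMa (15.6%), and of 7747 genes detected in CMa, 660 were gained (8.52%). Another 6669 genes were detected on all 6 arrays, and 7574 of the 19057 genes with a symbol were detected on none. The lost genes were mostly dim in mES, with a median level of 6.26 log2 units (quartiles 5.65 and 7.39, highest 13.06) and 253 above 8. They held 0.110 ± 0.005% of CMa signal and 3.92 ± 0.08% of mES signal. Gained genes held 6.09 ± 0.31% of CMa signal and 0.0475 ± 0.0024% of mES signal, at a median CMa level of 7.31 (highest 15.22). In CMp, 640 of the lost genes were undetected on all arrays and 378 were detected on all. CMa arrays detected fewer probes at a lower total signal, so a lost gene is one that fell under detection there, not one shown to be silent. Known function lists covered 154 of the lost and 34 of the gained genes.

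**Figure D4:**
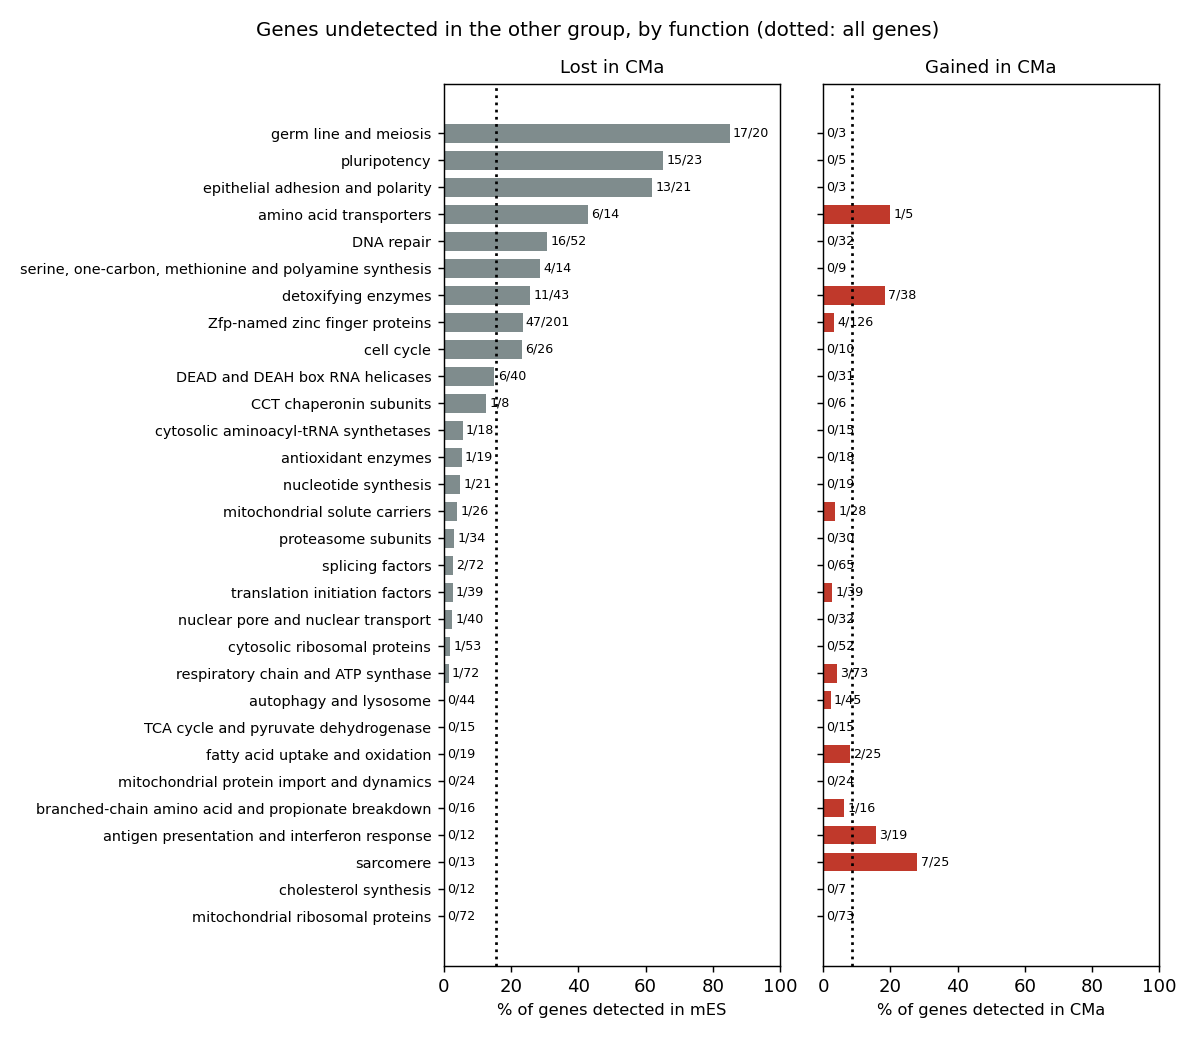
Percent of each list's detected genes that were undetected in the other group: left, genes detected on 3 of 3 mES arrays and on no CMa array (lost, grey bars); right, genes detected on 3 of 3 CMa arrays and on no mES array (gained, red bars), with counts beside the bars and dotted lines at all genes (15.6% and 8.52%). Germ line genes lie at 85.0% lost, epithelial genes at 61.9% and DNA repair at 30.8%, while ribosomal proteins lie at 1.89%.

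Germ line and meiosis genes had the highest share of losses among lists with 8 or more genes detected in mES: 17 of 20 detected in mES (85.0%), against 15.6% of all genes. A share of losses depends on the level in mES as well as on the fall. The median log2 change of the list was -2.19, or -1.31 with bounds for undetected genes. For nuclear pore and transport genes, which lost 1 of 40 (2.5%), these medians were -2.08 and -1.95. Tdrd12, of the piRNA pathway that silences transposons, read 4.79, 4.65 and 4.67 in CMa against 10.62, 10.84 and 10.77 in mES, at least 38.1-fold lower. Tex19.1, a germ cell and placenta gene, was at 4.45, 4.56 and 4.38 in CMa against 10.17, 10.03 and 10.43 in mES, at least 26.3-fold lower. The lost members included the meiotic cohesins Rec8, Smc1b and Stag3, the synaptonemal complex proteins Syce1 and Syce2, and the germ cell RNA-binding genes Dazl, Ddx4 and Piwil2, chosen for mention after their values were seen. Ddx4 was near background in mES too (mean 5.38, against 4.93 in CMa), and its bound of 1-fold shows no fall. The others were at least 2.34-fold (Smc1b) to 11.3-fold (Stag3) lower. Mov10l1 and Tdrd7 were called higher. Mov10l1, known for a piRNA helicase of the testis and for a shorter heart transcript, read 11.18, 11.01 and 10.56 in CMa against 5.67, 6.11 and 6.11 in mES (4.95 ± 0.21, adjusted p = 4.2e-09). Tdrd7, a tudor protein, changed by 3.17 ± 0.22. The list held 0.0248% of CMa signal and 0.0679% of mES signal, and Mov10l1 alone held 0.0187% of CMa signal.

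Epithelial adhesion and polarity genes followed, with 13 of 21 lost (61.9%), 21 of 22 tested called lower and 1 higher. Cldn6, a tight junction claudin of early embryos, was at 4.31, 4.23 and 4.35 in CMa against 11.21, 10.27 and 11.04 in mES, at least 40.8-fold lower. Esrp1, the splicing regulator that sets epithelial isoforms, was at 4.28, 4.30 and 4.34 against 10.65, 10.63 and 10.54, at least 34.7-fold lower. Krt8, Krt19, Cldn4, Cldn7, Rab25, Spint2 and St14 were also lost. Their bounds ran from 1.07-fold lower for Cldn7, near background in mES (mean 5.59, against 4.90 in CMa), to 34.3-fold lower for Krt8. Cldn9 alone was called higher, by 1.03 ± 0.23, but with median scaling it was at 0.22 and not called (adjusted p = 0.369). The share of the list was 0.00667 ± 0.00042% in CMa against 0.172 ± 0.015% in mES. The percent lost lay between 47.8 and 87.0 over the detection rules tried, above that of all genes under each of them.

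DNA repair lost 16 of 52 detected genes (30.8%), and 47 of 52 were called lower and 1 higher (Xpa, 0.45 ± 0.18, which was -0.53 with median scaling). The call of Xpa was also lost with cyclic loess and without CMa replicate 1 or 2 or mES replicate 1 or 3 (adjusted p = 0.0575 to 0.146). Rad54b, of homologous recombination, read 4.55, 5.05 and 4.51 in CMa against 10.39, 10.17 and 10.54 in mES, at least 29.4-fold lower. Blm, the Bloom syndrome helicase, stayed detected at 5.94, 5.85 and 6.31 against 11.58, 11.14 and 11.68 (-5.43 ± 0.19). Brca1, Brca2, Bard1, Chek1 and 6 Fanconi anaemia genes were among the lost. Their bounds ran from 1-fold for Fancg, near background in mES (mean 5.33, against 4.43 in CMa), to 7.55-fold lower for Fancd2. Zinc finger genes with Zfp names lost 47 of 201 (23.4%, or 15.2% against 12.2% of all genes at a detection threshold of 0.05), with 104 of 221 lower and 50 higher and a median of -0.48. Zfp42, the stem cell gene also known as Rex1, was at 4.99, 4.42 and 4.25 in CMa against 12.59, 12.23 and 12.46 in mES, at least 123-fold lower. For scale, the pluripotency list lost 15 of 23 genes and the cell cycle list 6 of 26 (23.1%), where 25 of 26 were called lower. The cell cycle share was 46.2% without CMa replicate 2, 53.8% at a detection threshold of 0.001 and 50% when 2 of 3 arrays sufficed.

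The 6 lost genes of highest mES level were Trh, Nanog, Dppa4, Ooep, Tfcp2l1 and Dnmt3l. Trh read 4.33, 4.39 and 4.57 in CMa against 13.07, 13.16 and 12.96 in mES, at least 190-fold lower. Ooep, a maternal oocyte protein, was at 4.39, 4.35 and 4.35 against 12.65, 12.37 and 12.80, at least 139-fold lower. Dnmt3l, the cofactor of de novo DNA methylation in germ cells, was at 4.44, 4.47 and 4.50 against 12.35, 12.67 and 12.36, at least 125-fold lower. These 3 were thus clear of the CMa background on every mES array.

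Transcripts of biosynthesis for growth were lower with few outright losses, except around serine and glycine. Serine, one-carbon, methionine and polyamine synthesis had 13 of 14 genes called lower and none higher, the lowest median outside the pluripotency and cell cycle lists (-3.78), and 0.0339 ± 0.0009% of CMa signal against 0.517 ± 0.014% of mES signal. Gldc, the glycine decarboxylase, read 4.94, 4.35 and 4.40 in CMa against 12.45, 12.11 and 12.63 in mES, at least 120-fold lower. Psat1, the aminotransferase of serine synthesis, was at 6.61, 5.95 and 5.35 against 12.83, 13.05 and 12.88 (-6.95 ± 0.27). Phgdh, the first enzyme of that path, Cbs and Cth were lost with Gldc, 4 of 14 in all (28.6%), but at a detection threshold of 0.05 the share was 14.3% against 12.2% of all genes. Nucleotide synthesis had 20 of 21 lower and none higher, with 1 lost, Rrm2 (median -2.54, share 0.0742 ± 0.0005% against 0.514 ± 0.020%). Umps, of pyrimidine synthesis, was at 6.37, 6.52 and 5.49 in CMa against 10.87, 10.60 and 10.68 in mES. Tyms, thymidylate synthase, changed by -5.15 on its brightest probe and by -0.50 on the weakest of 3. Cholesterol synthesis had 11 of 13 lower and none higher with no gene lost, and its share was 0.0133 ± 0.0009% against 0.123 ± 0.019%. Sqle, squalene epoxidase, was at 4.75, 6.14 and 5.54 in CMa against 10.86, 10.52 and 10.93 in mES.

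Amino acid transporters lost 6 of 14 genes (42.9%), a share that lay between 25% and 60% over the detection rules tried. Slc7a3, a cationic amino acid carrier, read 4.32, 4.32 and 4.27 in CMa against 12.02, 12.16 and 12.12 in mES, at least 97.6-fold lower. Slc3a2, the shared heavy chain of several carriers, and Slc38a1 were also lost. Slc38a3, a glutamine carrier, was gained, at 7.31, 7.33 and 7.82 in CMa against 4.62, 4.44 and 4.51 in mES, at least 5.62-fold higher. Slc38a10 was called higher by 1.08 on 1 probe, but its 2 kept probes moved in opposite directions and the sign turned in 6 of the alternatives tried.

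The 660 gained genes were led by Cox6a2, Ckmt2, Cox8b, Csrp3, Tcap and Hrc, and 522 of the 660 were already detected on all CMp arrays. Hrc, the histidine-rich calcium-binding protein of the sarcoplasmic reticulum, read 14.05, 14.04 and 14.54 in CMa against 4.73, 4.43 and 4.71 in mES, at least 592-fold higher. Csrp3 and Tcap, proteins of the Z-disc, were at least 860-fold and 762-fold higher. Among the function lists outside muscle structure and mitochondria, detoxifying enzymes had the most gained members. These were 7 of 38 detected in CMa (18.4% against 8.52% of all genes). The same list lost 11 of 43 (25.6%, or 15.2% at a detection threshold of 0.05). Of 59 tested, 29 were called higher and 18 lower, with a median of 0.49 that was -0.12 with median scaling. Ces1d, a carboxylesterase that also hydrolyses triglyceride, read 11.72, 12.11 and 12.50 in CMa against 4.31, 4.45 and 4.41 in mES, at least 138-fold higher. Sult1a1, a phenol sulfotransferase, was at 10.43, 10.11 and 9.57 against 4.25, 4.38 and 4.28, at least 32.8-fold higher. Sult4a1 of the same family was lost, at 5.24, 4.34 and 4.27 in CMa against 10.45, 10.65 and 10.55 in mES.

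Antigen presentation and interferon response genes had 16 of 20 called higher and 1 lower (Ifitm3), a median of 2.11 and 0.288 ± 0.033% of CMa signal against 0.124 ± 0.005% of mES signal. Ifitm3 changed by -0.55 ± 0.20, and its call was lost with cyclic loess and without CMa replicate 3 or any 1 of the mES replicates (adjusted p = 0.0521 to 0.0999). H2-D1, a class I heavy chain, read 11.65, 12.27 and 11.47 in CMa against 7.58, 7.31 and 7.37 in mES. Igtp, an interferon-inducible GTPase, was at 10.29, 12.03 and 12.25 against 5.66, 4.53 and 5.80, with a wide spread within CMa. Complement and blood-facing inhibitors had 5 of 9 higher and 2 lower, led by Cd59a (5.11 ± 0.17), the inhibitor of the membrane attack complex, and Thbd, thrombomodulin, at least 18.2-fold higher. Endothelial markers, of which 13 of 13 were higher in CMa, moved with these lists, and their part in the result was not tested. Emcn, an endothelial sialomucin, read 10.96, 11.21 and 10.54 in CMa against 4.66, 4.25 and 4.37 in mES. Autophagy and lysosome genes had 25 of 50 higher and 12 lower (median 0.62, but -0.10 with median scaling), with no gene lost of 44. Map1lc3a, a form of the autophagosome protein LC3, changed by 4.54 ± 0.19, and Psap, the saposin precursor, by 3.16 ± 0.21.

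Immediate early and stress genes, which respond to handling of cells, were also higher: 12 of 17 were called higher and 2 lower, and they held 0.503 ± 0.022% of CMa signal, 0.946% of CMp signal and 0.220 ± 0.013% of mES signal. Hspa1a, an inducible heat shock protein, read 11.61, 10.94 and 10.55 in CMa against 5.08, 5.33 and 5.33 in mES, and Atf3, a stress transcription factor, 10.25, 10.14 and 10.53 against 4.98, 5.31 and 5.19. Myc and Socs3, which stem cells use, were lower, though Myc was not called with cyclic loess or in the authors' matrix (adjusted p = 0.0553 and 0.124). Whether isolation of the adult cells moved other genes was not tested. Of 1071 olfactory receptor genes with a probe, 1029 were undetected on every array of both groups, and 8 passed the filter.

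Many proteins come in several forms. Pairs of a form listed as that of muscle and another form were followed, 18 in all, 13 with both forms tested. Lmna and Tuba4a were listed as muscle forms, though neither is confined to muscle. In 9 pairs, those of Lmna and Tuba4a included, the listed muscle form was called higher and the other form lower. Glycolysis showed it at Pgam2, muscle phosphoglycerate mutase, which read 13.94, 13.89 and 13.96 in CMa against 5.96, 5.76 and 6.13 in mES, while Pgam1 read 8.55, 8.08 and 8.16 against 10.87, 10.80 and 10.63. Glucose entry showed it at Slc2a4, the insulin-responsive transporter GLUT4, at 10.43, 10.47 and 10.78 in CMa against 4.60, 4.46 and 4.60 in mES (at least 47.2-fold higher), while Slc2a3, GLUT3, read 5.66, 4.40 and 5.04 against 13.52, 13.07 and 13.62. Each form was clear of overlap between the groups. Translation showed it too: Rpl3l, the striated muscle form of ribosomal protein L3, was at 14.41, 14.47 and 14.56 in CMa against 6.22, 5.48 and 6.19 in mES, while Rpl3 was at 12.53, 12.70 and 12.42 against 14.67, 14.59 and 14.58. Rpl3l was the 1 ribosomal protein called higher. Eef1a2, the elongation factor of muscle and neurons, changed by 8.52 ± 0.17 and Eef1a1 by -1.52 ± 0.16. Ckm rose at least 511-fold and Ckb fell by 1.54 on the log2 scale. Nuclear lamins followed, with Lmna at 2.58 ± 0.16 and Lmnb1 at -5.21 ± 0.32, as did alpha tubulins (Tuba4a 1.90, Tuba1b -2.41) and phosphofructokinases (Pfkm 4.06, Pfkp -1.01). The call of Pfkp was lost without the detection filter and without CMa replicate 2 or 3 or mES replicate 1 or 3 (adjusted p = 0.05 to 0.0795).

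In 3 pairs both forms were higher: Cox7a1 and Cox7a2 (6.52 and 1.78), Fabp3 and Fabp5 (4.28 and 0.87), and Pygm and Pygl (6.39 and 1.39). With median scaling Fabp5 and Pygl were not called (0.35 and 0.56, adjusted p = 0.161 and 0.252), nor was Fabp5 in the authors' matrix (adjusted p = 0.0841). Lactate dehydrogenase showed neither pattern. Ldhb, the heart form, read 4.70, 5.67 and 6.80 in CMa against 5.40, 5.61 and 5.72 in mES and was not called (0.15 ± 0.41, adjusted p = 0.755), and its groups overlapped near background. Ldha was at 13.43, 13.44 and 13.63 in CMa against 13.85, 13.88 and 13.87 in mES (-0.37 ± 0.16, adjusted p = 0.0493). Its call was lost with cyclic loess and without any array but CMa replicate 3 (adjusted p = 0.101 to 0.119). In the other 5 pairs only 1 form was tested, with Eno3, Cox8b, Cpt1b and Ak1 higher and Slc25a5 lower. The call of Slc25a5 was lost with cyclic loess and without CMa replicate 1 or 3 or mES replicate 2 or 3 (adjusted p = 0.0561 to 0.126).

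**Figure D5:**
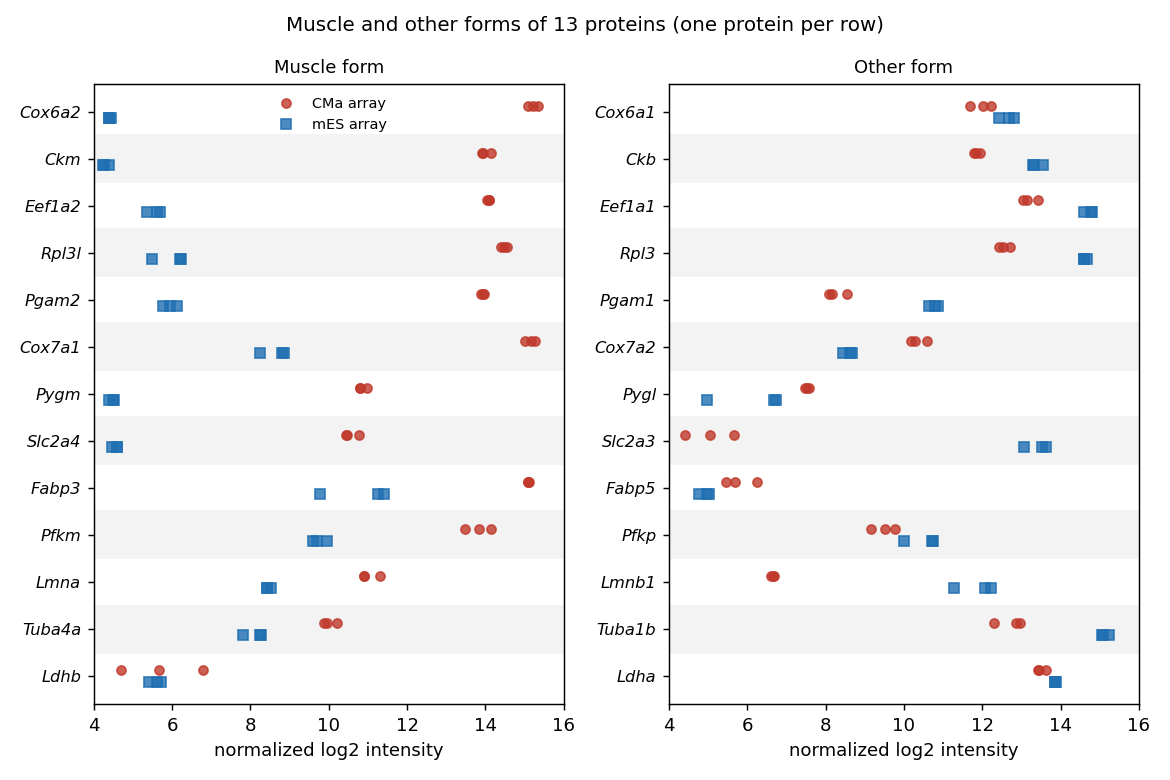
Normalized log2 intensity (horizontal axes) of the listed muscle form (left) and the other form (right) of 13 proteins, a protein per row. Lmna and Tuba4a, on the left, are not confined to muscle. Red circles for the 3 CMa arrays are set above blue squares for the 3 mES arrays. The muscle forms lie to the right in CMa except Ldhb, which overlaps, and 10 of the other forms, Ldha included, lie further left in CMa than in mES.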

How the data were processed

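RNA was labelled and hybridised to Illumina bead arrays. Per the file headers, the deposited scanner table gave a signal intensity for each probe and array on the linear scale, not normalized, and a detection p-value. The deposited series matrix held log2 values normalized by the authors with lumi, per the submitters' processing notes; it served as an alternative only. The nec function of limma 3.58.1 (R 4.3.3) derived each array's background from its detection p-values, and 16 was added. The 9 arrays were then quantile normalized on the linear scale, and log2 was taken afterwards.

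Of all probes, 19707 were detected (p under 0.01) on 3 or more of the 9 arrays and kept (of these, 16962 carried a single symbol in the array annotation); 10396 probes had no single symbol. The brightest kept probe stood for each of 10800 genes; for 66 genes kept probes moved oppositely by 2-fold or more. A model with 3 group means was fitted by lmFit and eBayes, with Benjamini-Hochberg adjustment. Values given with ± after a log2 change are standard errors of that fit. For a gene with no detection in either CMa or mES, the fold is a bound ("at least"), computed with the undetected side set no lower than the dimmest detected probe of the same array. Concentration and shares used corrected linear signal of each gene's brightest probe over the 9 arrays, without offset or normalization between arrays. The total behind each share was the sum over those probes. The number of arrays limits the precision.

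Lists, pairs and named genes were chosen with earlier results of these data known. Named genes were the 5 largest changes each way, up to 2 leading members of each list and up to 3 moving against it, the 12 and 8 highest in CMa and mES signal, the 6 highest lost and gained genes, all pairs and all markers. The fit was tested on simulated data. Replicate numbers were not taken as pairs, since the labels name no pairing. Deviations of same-numbered CMa and mES arrays correlated at 0.04, -0.06 and 0.14, which does not decide whether such arrays shared a batch. Alternatives covered normalization, background, filters, probe choice, detection rules and each array left out. Protein sequences were not used here.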

Additional observations from a re-analysis of the deposited data

How the results depend on the processing

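Counts of called genes kept within 1.5 times under every alternative to normalization, background, filter and probe choice. The fold counts did not: at least 2-fold calls were 1937 higher and 4917 lower with arrays scaled to a common median, which moves all genes down, and 1538 higher and 1537 lower in the authors' matrix. Calls split 30.99% higher of 8707 with median scaling, against 47.8% of 8301. Leaving out each array gave 7167 to 8063 calls, 3717 to 3830 higher and 3442 to 4264 lower, and 2998 to 3086 and 2651 to 3266 at 2-fold or more; without an mES array fewer stem cell genes could pass the filter of 3 arrays. With the replicate block 8425 genes were called, though the labels name no pairing by replicate number. Ldha, Slc25a5 and Xpa were not called there (limma adjusted p = 0.0708, 0.0523 and 0.0575). Asking for detection on at least 2 of 3 arrays against at most 1 of 3 gave 2108 lost and 1094 gained genes; leaving out an array gave 1399 to 1562 lost and 678 to 762 gained. The authors' matrix, already normalized, gave differences of -0.19 points in the top 10 share, 1.76 in the top 100 and 3.33 in the top 500. The effective number differed by -658 there. Raw signal gave 1.29, 5.71, 7.002 and -663, and all probes 1.41, 6.16, 8.29 and -1193. Leaving out an array gave 1.46 to 2.07, 7.90 to 8.22, 10.5 to 11.3 and -935 to -885. The ratio of CMa to mES signal share stayed on its side of 1 for the 14 lists recomputed. It was 3.35 to 3.83 for the respiratory chain, 9.59 to 11.4 for fatty acid oxidation and 0.480 to 0.641 for ribosomal proteins. It moved by over 1.5 times for energy transfer with all probes (11.96 against 7.71), with raw signal for the sarcomere (65.5 against 101.6) and epithelial genes (0.178 against 0.0389) and, in the authors' matrix, for the sarcomere (45.3), epithelial (0.295), one-carbon (0.120 against 0.0656), DNA repair (0.296 against 0.161) and nuclear transport genes (0.287 against 0.172). List medians turned with median scaling for mitochondrial ribosomal proteins (-0.19), Slc25 carriers (-0.25), lysosome (-0.10), detoxifying enzymes (-0.12) and sex-linked genes (-0.0696), and olfactory receptors gave -0.42 under a filter on CMa or mES detection. Of the genes named, Dhx32 (-0.32), Xpa (-0.53) and Slc38a10 (-1.17) turned with median scaling; Slc38a10 also with cyclic loess (-0.24), the group filter (-0.82) and without CMa replicate 1, 2 or 3 (-0.70, -0.88 and -0.98; the range over all 6 arrays left out was -0.98 to 1.11). Auh (0.0412), Col1a1 (-0.0207) and Thy1 (0.0131) turned in the authors' matrix, and Tpm2 (0.39) with the mean of its probes. The cause was not tested. Another 71 values of single genes lost their call and 15 gained one.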

Other observations

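Families were also grouped by the letters of their symbols, a rule set after the data were seen. They overlap the lists in part: Kif11 is a lost gene of the cell cycle list, and Tex11, Tex14 and Tex19.1 are lost genes of the germ line list. Kif-named kinesins, motors on microtubules, lost 11 of 24 members detected in mES (45.8%, against 15.6% of all genes). By the same rule Prr names lost 63.6% and Col and Tex names 50% each. Kif2c, a spindle motor, read 4.48, 4.54 and 4.61 in CMa against 10.23, 10.35 and 10.16 in mES, at least 27.1-fold lower. Kif1b and Kif1c, which carry cargo along axons and other tracks, were higher in CMa by 4.06 and 4.29 on the log2 scale. Their relative Kif1a was lost, at least 9.43-fold lower, as was Kif5c, at least 3.27-fold lower, so the family split by member. Kif5a, Kif21b and Kif24 counted as lost too but were dim in mES (means 5.37, 5.13 and 5.78). Their bounds were 1-fold, 1-fold and 1.22-fold, so little or no fall is shown for them. Of 25 Kif genes tested, 16 were called lower and 6 higher.

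Asb-named genes, substrate adaptors of cullin ubiquitin ligases, gained 5 of 10 members detected in CMa (50%, against 8.52% of all genes). Col names gained 45.5%, Arhgap 42.9%, and Hspa and Pde 40% each. Asb2 read 12.75, 12.92 and 13.54 in CMa and was undetected in mES at 4.52, 4.46 and 4.35, at least 269-fold higher. Asb10, Asb11, Asb12 and Asb14 were the other gained members, at least 8.18-fold to 25.4-fold higher. Klhl-named adaptors gained 6 of 18 (33.3%), among them Klhl41, Klhl40, Klhl31 and Klhl30, of which the first 2 are known for nemaline myopathy in humans. Klhl41 was at least 53.4-fold higher.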
